A study of Mus musculus with 12 samples.

Results

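The genes described here encode voltage-gated sodium channels, voltage-gated calcium channels and all families of potassium channels, with their auxiliary subunits. They were taken by symbol: every protein-coding gene on mouse chromosomes 1 to 19 and X whose symbol begins with Kcn, Cacn, or Scn and a digit. The rule gave 134 of 21631 genes. It uses no measured value, but the set was chosen with earlier results of these data known. Each gene was given a window, its annotated span plus 10 kb on either side, and the HIF1A and ARNT peaks that overlapped the window were counted. The windows of the 134 genes merge into 129 stretches of 19.5 Mb, which is 1.52% of the length of all protein-coding gene windows.

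The peaks come from ChIP-seq, the sequencing of DNA pulled down with an antibody to a chromatin protein. The cells were N1E115, a mouse line derived from a neuroblastoma; the labels call it NOS1+, meaning that it has the neuronal nitric oxide synthase. All cells were kept for 3 days in 5% CO2 at ambient barometric pressure, at 20% O2 in the high-oxygen groups and at 4% O2 in the low-oxygen groups. Each antibody, HIF1A or ARNT, has 2 peak lists at each oxygen level, 8 lists in all, and the 4 input samples (2 per oxygen level) served as the authors' background for peak calling. The labels do not say that replicates came from separate cultures, so the spread between them may be technical, and a single tumour-derived line stands for neurons here.

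HIF1A is the subunit of hypoxia-inducible factor 1 that is degraded when oxygen is plentiful, and ARNT is its stable partner. The pair binds DNA at short elements with the core ACGTG or GCGTG, often at the starts of glycolytic genes. Voltage-gated channels open when the membrane is depolarised: sodium channels carry the upstroke of the action potential, calcium channels couple it to secretion and gene expression, and potassium channels end it and set the resting potential. In oxygen-sensing cells of the carotid body, low oxygen closes potassium channels within seconds, a route that does not pass through transcription.

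The lists differ in length and form. At 4% O2 the HIF1A replicates 1 and 2 had 42701 and 13655 peaks, and at 20% O2 they had 5393 and 13386. The ARNT replicates had 24942 and 9920 peaks at 4% O2, against 7252 and 1808 at 20% O2. Both HIF1A replicate 2 lists give positions of 1 bp, came from combined sequencing runs and were called against input 5, while the other 6 lists give intervals called against input 4. No read counts were in the lists, so depth is unknown. Peaks were therefore compared by their percentile, the rank of the authors' score among the scores of the same list (highest 100), which says where a peak stands in that list and is not a level of binding. Overlapping peaks of a group were merged, and a stretch to which both replicate lists contributed is called a reproducible region.

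Channel genes had a region about as often as all protein-coding genes, and they had fewer at their ends. A HIF1A region at 4% O2 lay in the window of 47 of the 134 genes (35.1%, 95% Wilson interval 27.5 to 43.5), beside 34.2% of all protein-coding genes. An ARNT region at 4% O2 lay in 38 windows (28.4%, 21.4 to 36.5), beside 27.7%. At 20% O2 the counts were 13 for HIF1A (9.70%, 5.76 to 15.9), beside 10%, and 10 for ARNT (7.46%, 4.10 to 13.2), beside 7.11%. The background lay within the interval in all 4 groups, so the overall count is no result about channels. The intervals cover counting of genes only.

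Within 1 kb of a gene end the counts were lower than the background in every group. A HIF1A region at 4% O2 lay there in 11 genes (8.21%, 4.65 to 14.1), against 17.5% of all genes. For ARNT at 4% O2 it was 8 genes (5.97%, 3.06 to 11.3), against 15.2%. At 20% O2 no channel gene had such a region for either antibody, against 2% of all genes for HIF1A and 3.05% for ARNT, and 0 of 134 allows a share of up to 2.24% by the limit of 3 counts (2.79% by the Wilson interval). A difference from the HIF1A background at 20% O2 was thus not detectable. With ends drawn at 5 kb the counts were 24 for HIF1A (17.9%, 12.3 to 25.3, against 24.7%) and 20 for ARNT (14.9%, 9.87 to 21.9, against 20.6%) at 4% O2, and the background then lay within the interval. List by list at 1 kb, as deposited, channel genes with a peak at an end made up 25.4% and 8.96% for HIF1A at 4% O2, against 37.3% and 17.5%. For ARNT at 4% O2 the list shares were 14.2% and 10.4%, against 28.4% and 20.1%. At 20% O2 they were 0 and 3.73% for HIF1A, against 2.18% and 14.7%, and 0.746% and 0 for ARNT, against 9.02% and 3.31%. In all 8 lists, then, the share of channel genes with an end peak was below that of all genes.

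**Figure D1:**
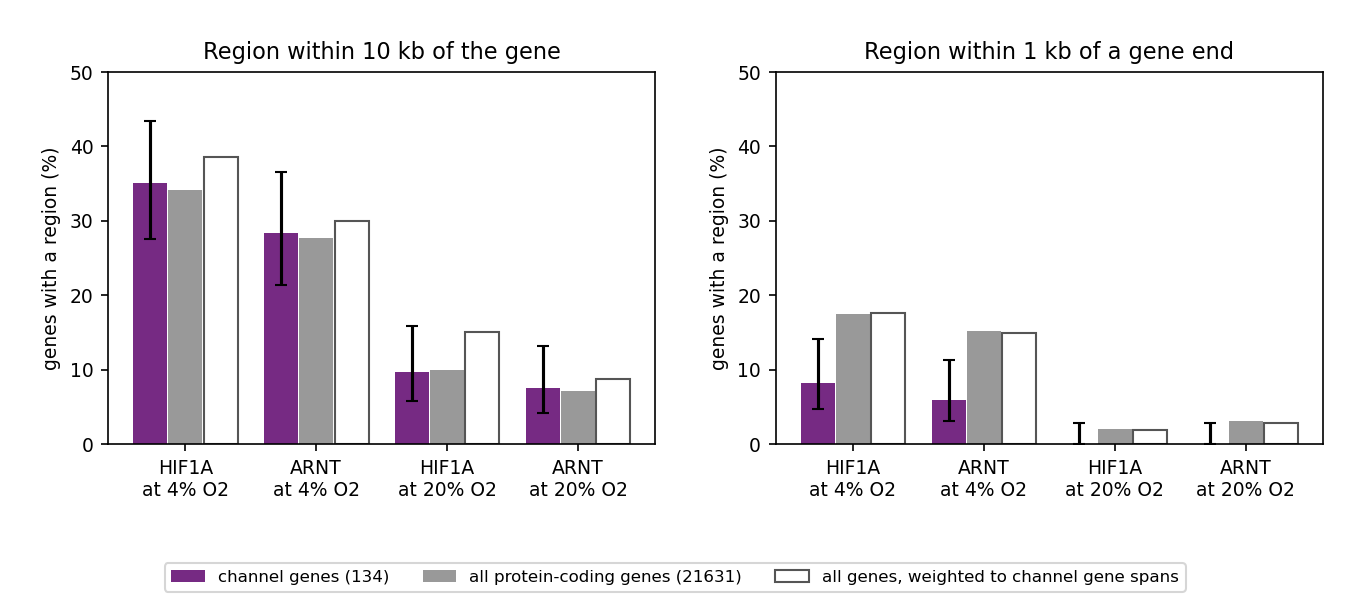
Share of genes (%) with a reproducible region within 10 kb of the gene (left) or within 1 kb of a gene end (right), for each antibody and oxygen level. Purple bars are the 134 channel genes with 95% Wilson intervals, grey bars all 21631 protein-coding genes, and open bars all genes weighted to the spans of the channel genes; the purple bars match the grey on the left and lie below them on the right, 8.21% against 17.5% for HIF1A at 4% O2.

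Channel genes are long, and length was taken into account. Their median span was 44.7 kb, against 17.3 kb for all protein-coding genes. With all genes weighted to the same classes of span (under 20 kb, 20 to 100 kb, over 100 kb), the background for any region became 38.6% and 29.9% at 4% O2 (HIF1A, then ARNT) and 15.1% and 8.70% at 20% O2, each above the channel share. For gene ends the weighted backgrounds were 17.6% and 14.9% at 4% O2, close to the unweighted ones. The 43 channel genes over 100 kb had a HIF1A region at 4% O2 in 17 cases (39.5%, against 47.9% of all genes that long) and at an end in 1 case (2.33%, against 15.3%). The 54 channel genes with a region in any group had a median span of 39.1 kb and the 80 without one 51.8 kb.

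The regions of channel genes lay mostly inside the genes. HIF1A at 4% O2 had 104 regions in the channel windows, of which 70 lay inside a gene span, 22 in the 10 kb flanks and 12 within 1 kb of an end. ARNT at 4% O2 had 57, with 32 inside, 17 in flanks and 8 at ends. At 20% O2 HIF1A had 23 regions (19 inside, 4 in flanks) and ARNT 11 (7 inside, 4 in flanks). Exons and introns inside the span were not told apart. The split into inside and flank was not computed over all genes, so it is no result about channels. Counting an end of any protein-coding gene, channel or not, 21.2% of the 104 HIF1A regions at 4% O2 lay at an end (14.4 to 29.96), against 38.7% of all regions in gene windows. The share was 35.1% of the 57 ARNT regions (24.0 to 48.1), against 52.6%. At 20% O2 it was 2 of 23 HIF1A regions (8.70%, 2.42 to 26.8), against 13.8%. For ARNT it was 2 of 11 (18.2%, 5.14 to 47.7), against 43.5%. At 20% O2 both backgrounds lay within the interval.

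Many flank regions sat at the end of a neighbouring gene. This held for 10 of the 22 HIF1A and 12 of the 17 ARNT flank regions at 4% O2, and for 2 of 4 at 20% O2 for each antibody. A peak in such a window cannot be assigned to the channel gene rather than to the neighbour, and the neighbour is named below for the regions described. Of the 47 genes with a HIF1A region at 4% O2, Kcna7 and Kcnj9 were counted through a region that crosses the edge of the window.

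Sequence could be read where a region overlaps a RefSeq promoter window, which runs from 250 bases before to 50 bases after a listed transcript start (GRCm38.p6, the build mm10). Those below are shown because they are the parts of HIF1A or ARNT regions that lie at a listed start: the sites of high rank at Kcnab2, Cyth2 and Dcaf7, and for comparison those of lower rank at Cacna1b, Kcna4, Kcnj9 and Kcnq1ot1. Each is written 5′ to 3′ on the strand of the transcript, and capitals mark ACGTG or GCGTG on either strand (CACGT and CACGC are the reverse complements). The first is an internal start of Kcnab2 (chr4:152448806-152448949, minus strand). Those of Cacna1b (chr2:24763159-24763339, minus), Kcna4 (chr2:107290455-107290638, plus) and Kcnj9 (chr1:172329273-172329432, minus) are the genes' own starts. The stretch at Kcnq1ot1 (chr7:143296498-143296613, minus) lies inside Kcnq1. Those at Cyth2 (chr7:45814310-45814566, minus) and Dcaf7 (chr11:106036641-106036921, plus) are the starts of neighbours, of Kcnj14 and Kcnh6.
Kcnab2: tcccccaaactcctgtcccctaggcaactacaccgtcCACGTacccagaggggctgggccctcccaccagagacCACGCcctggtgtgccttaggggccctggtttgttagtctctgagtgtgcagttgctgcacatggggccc
Cacna1b: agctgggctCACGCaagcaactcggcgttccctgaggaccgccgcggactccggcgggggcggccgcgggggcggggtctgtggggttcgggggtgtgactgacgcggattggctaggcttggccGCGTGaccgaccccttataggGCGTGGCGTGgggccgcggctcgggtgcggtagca
Kcna4: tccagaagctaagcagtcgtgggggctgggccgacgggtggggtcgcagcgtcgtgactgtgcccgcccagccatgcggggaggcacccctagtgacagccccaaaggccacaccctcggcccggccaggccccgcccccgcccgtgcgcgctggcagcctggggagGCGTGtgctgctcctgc
Kcnj9: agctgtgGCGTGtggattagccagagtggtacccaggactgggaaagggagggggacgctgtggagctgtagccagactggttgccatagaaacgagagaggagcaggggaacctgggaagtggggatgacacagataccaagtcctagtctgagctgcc
Kcnq1ot1 in Kcnq1: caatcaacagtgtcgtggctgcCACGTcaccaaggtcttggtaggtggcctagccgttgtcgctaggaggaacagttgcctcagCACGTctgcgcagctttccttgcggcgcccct
Cyth2 beside Kcnj14: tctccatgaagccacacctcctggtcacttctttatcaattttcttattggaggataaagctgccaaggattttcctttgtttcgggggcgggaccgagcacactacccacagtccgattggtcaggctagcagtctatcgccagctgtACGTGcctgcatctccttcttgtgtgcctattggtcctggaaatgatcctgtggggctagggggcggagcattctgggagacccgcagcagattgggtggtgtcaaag
Dcaf7 beside Kcnh6: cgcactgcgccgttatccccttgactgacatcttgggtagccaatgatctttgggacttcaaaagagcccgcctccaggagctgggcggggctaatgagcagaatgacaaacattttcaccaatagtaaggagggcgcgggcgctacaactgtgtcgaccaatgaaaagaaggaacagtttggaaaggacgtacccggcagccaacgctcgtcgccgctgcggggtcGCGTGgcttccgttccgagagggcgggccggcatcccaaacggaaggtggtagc

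Every one of these 7 stretches holds a core, but they differ in which. The Kcnab2 stretch has 1 ACGTG and 1 GCGTG, Kcnq1ot1 has 2 ACGTG, Cyth2 has 1 ACGTG, and Cacna1b has 4 GCGTG and no ACGTG. Kcna4, Kcnj9 and Dcaf7 have 1 GCGTG each. They are a choice: over every part of a promoter window that a region in a channel window overlapped, a core at 4% O2 was in 13 of 16 parts under HIF1A regions and 13 of 18 under ARNT regions. At 20% O2 it was in 0 of 3 and 2 of 2. Overlapping windows are counted separately. A match describes the letters and is not a measured binding site. Regions inside introns or between genes, which make up most of the channel regions, have no sequence in the tables used here.

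Each element counted was in a smaller share of channel promoter windows than of all promoter windows, and the differences were not tested. Of 135 windows of 99 channel genes, 62 had ACGTG or GCGTG on either strand (45.9%), against 49.8% of all 21045 windows (17274 genes) of the same length. ACGTG alone was in 19 (14.1%, against 21.1%) and GCGTG in 48 (35.6%, against 38.8%). The E-box CACGTG, which contains ACGTG, was in 7 (5.19%, against 7.91%), the AP-1 element TGANTCA in 5 (3.70%, against 7.04%) and the cyclic AMP element TGACGTCA in 0 (against 2.26%). Over the genome, windows overlapped by a HIF1A region at 4% O2 held a core in 84.2% of cases and other windows in 44.3%. For ARNT the shares were 83.3% and 45.1%. Only 2 of the channel windows were overlapped by a HIF1A region at 4% O2, those of Cacna1b and Kcnab2, and 3 by an ARNT region, those of Kcnab2, Kcna4 and Kcnj9.

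**Figure D2:**
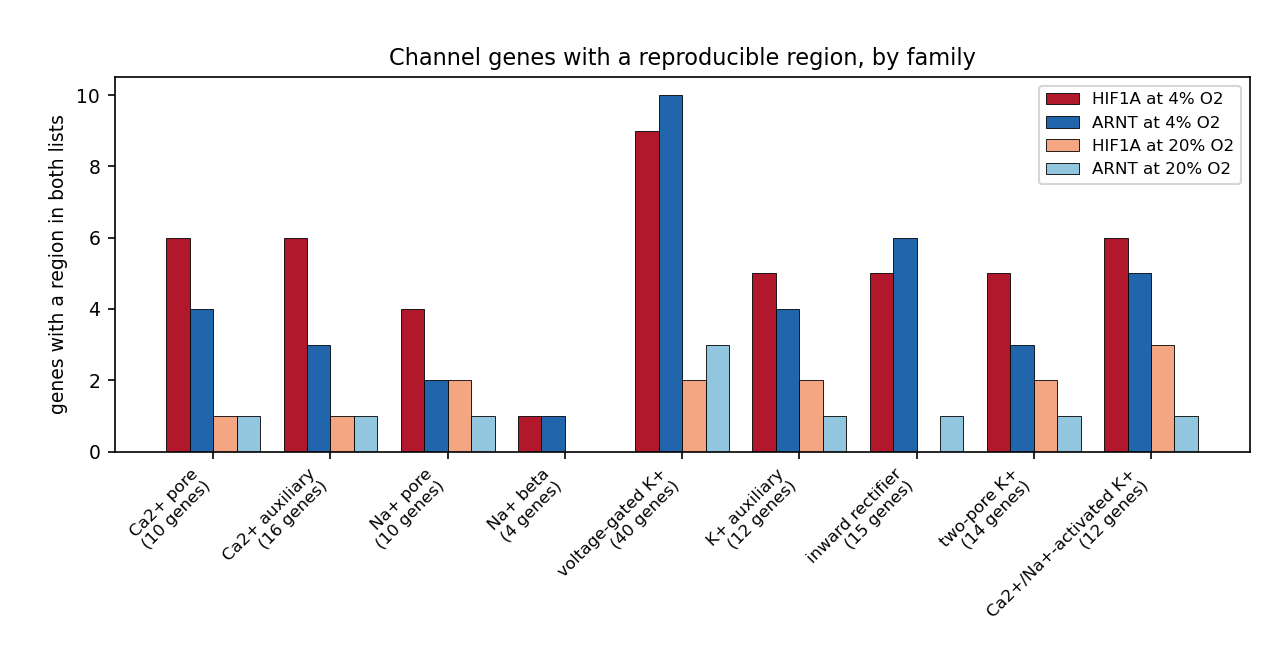
Number of genes with a reproducible region in both lists of a group (vertical axis) for 9 channel families, with the number of genes in each family under its name. Bars stand for HIF1A and ARNT at 4% O2 (dark) and 20% O2 (light); the calcium channel pore genes have 6 of 10 with a HIF1A region at 4% O2 and the voltage-gated potassium channel pore genes 9 of 40. Over all protein-coding genes that share was 34.2%, and 47.9% for genes over 100 kb.

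Calcium channel pore subunits, which form the conducting pathway, were the family with the largest share of genes holding a HIF1A region at 4% O2. Of 10 genes 6 had one (Cacna1a, Cacna1b, Cacna1c, Cacna1f, Cacna1h and Cacna1i), 4 had an ARNT region at 4% O2, and Cacna1c alone had regions at 20% O2. Of the 6, Cacna1a, Cacna1b, Cacna1c and Cacna1i span over 100 kb. Over all protein-coding genes the HIF1A and ARNT shares were 34.2% and 27.7% at 4% O2, and 10% and 7.11% at 20% O2. For genes over 100 kb they were 47.9% and 33.7% at 4% O2. Every family count of genes with a region, here and below, stands beside these shares. The part of gene length in the order of families was not tested. Every one of the 10 had a peak in at least 1 list, while each of the other families had members with none. The share of all protein-coding genes without a peak in any list was not computed, so counts of genes without a peak are no result about a family. The families were compared by count only, and with 1 to 40 genes in a family the differences were not tested. The lone gene outside the 9 families, Kcnrg, a potassium channel regulator, had no peak.

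Cacna1c encodes the pore of the L-type channel of heart, smooth muscle and neurons. Its window, a 610 kb span and the flanks, held 34 and 10 HIF1A peaks and 17 and 7 ARNT peaks at 4% O2, and 5 and 8 HIF1A peaks and 7 and 2 ARNT peaks at 20% O2 (replicates 1 and 2). A single site stood out within it: chr6:118621432-118622303, 575081 bp from the gene start and 135671 bp from the nearest listed start of Cacna1c. There the HIF1A peaks at 4% O2 ranked at percentiles 99.5 and 98.1 (mean 98.8 ± 0.97 SD, n = 2), with authors' scores of 362 and 240. The ARNT peaks at 4% O2 ranked at 98.4 and 95.6, and the HIF1A peaks at 20% O2 at 84.6 and 96.9. The ARNT peaks at 20% O2 ranked at 79.7 and 15.8 and so disagreed. The site was thus in all 8 lists, above percentile 95 in all 4 at 4% O2 and in 1 of 4 at 20% O2. The next site, chr6:118724971-118725659, had HIF1A ranks of 96.0 and 69.1 at 4% O2 and 74.4 and 69.7 at 20% O2. Altogether Cacna1c had 10 HIF1A regions at 4% O2, none of them at a gene end, of which 4 had a peak in both HIF1A lists at 20% O2.

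Cacna1h encodes a low-voltage-activated T-type pore. It held 15 and 7 HIF1A peaks and 10 and 7 ARNT peaks at 4% O2, 0 and 2 HIF1A peaks at 20% O2, and no ARNT peak at 20% O2. Its highest HIF1A region, chr17:25405170-25405820 inside the gene, ranked at 98.5 and 96.4 at 4% O2, and the ARNT region there at 95.6 and 89.99. A second site at chr17:25418045-25418397 ranked at 96.6 and 88.2 for HIF1A. Cacna1h had 6 HIF1A and 5 ARNT regions at 4% O2 in 62.1 kb, and all 5 ARNT regions overlapped a HIF1A region. Cacna1i, another T-type pore, was similar in kind: its best site, chr15:80366924-80367385, ranked at 94.9 and 75.7 in the HIF1A lists and 86.1 and 58.5 in the ARNT lists at 4% O2. The third T-type gene, Cacna1g, had 4 and 0 HIF1A peaks and 3 and 1 ARNT peaks at 4% O2 and no reproducible region.

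The pores of presynaptic terminals ranked low. Cacna1b, the N-type pore, had a HIF1A region across its own start (the sequence above) with ranks of 60.3 and 26.3 at 4% O2. Cacna1a, the P/Q-type pore, had a HIF1A region inside the gene at 38.9 and 20.5, and an ARNT region within 1 kb of an end at 10.2 and 5.80. Neither site had a peak of the same antibody at 20% O2.

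Auxiliary calcium channel genes had HIF1A regions in 6 of 16 cases and ARNT regions in 3 at 4% O2. Cacng3 encodes a gamma subunit that also acts as an auxiliary protein of AMPA receptors, and it was the only auxiliary gene with regions in all 4 groups. It had 2 nearby sites. At the start, chr7:122671004-122671396 (348 bp before it), HIF1A ranked at 97.1 and 84.9 and ARNT at 84.5 and 77.9 at 4% O2, and at 20% O2 there was a HIF1A peak in the replicate 2 list alone. At 1288 bp inside the gene, chr7:122673032-122673300, the HIF1A ranks were 91.7 and 56.3 at 4% O2 and 94.1 and 96.8 at 20% O2. The ARNT ranks at this inner site were 87.6 and 77.3 at 20% O2, and at 4% O2 the replicate 1 peak ranked at 94.7 and replicate 2 had none. The inner site therefore stood higher in both HIF1A lists at 20% O2 than in those at 4% O2, which was not so for ARNT replicate 1, and the start site was reproducible at 4% O2 alone. Ranks in lists of different length measure standing, so this is no change in binding.

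Cacna2d1, the alpha-2-delta subunit to which gabapentin binds, was without a peak in all 8 lists. The same was true of Cacna2d3, Cacnb2, Cacnb4, Cacng6 and Cacng8.

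Sodium channel pore genes had HIF1A regions in 4 of 10 cases and ARNT regions in 2 at 4% O2. Scn8a, the main channel of the axon initial segment and nodes of Ranvier, stood highest. It held 9 and 5 HIF1A peaks and 5 and 2 ARNT peaks at 4% O2, 1 and 2 HIF1A peaks at 20% O2, and 1 and 0 ARNT peaks at 20% O2. Its best region, chr15:100969877-100970401, lies 100014 bp from the gene start and 33606 bp from the nearest listed start of Scn8a. The region ranked at 99.2 and 96.6 in the HIF1A lists and 97.8 and 92.3 in the ARNT lists at 4% O2. At 20% O2 that site had a HIF1A peak in the replicate 2 list alone and no ARNT peak. The site ranked high in all 4 lists at 4% O2.

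Scn4a, the skeletal muscle channel, had a region 1477 bp from a listed start, chr11:106350867-106351311, with ranks of 87.1 and 74.8 in the HIF1A lists and 89.1 and 79.1 in the ARNT lists at 4% O2. Scn9a, a channel of sensory and sympathetic neurons, was reproducible at 20% O2 in both antibodies. At chr2:66597430-66597825, 37289 bp inside the gene, HIF1A ranked at 87.8 and 69.1 at 20% O2 and at 87.4 and 13.2 at 4% O2. ARNT ranked there at 50.6 and 46.8 at 20% O2, and at 4% O2 the ARNT peak was in 1 list. Scn3a, a channel of the embryonic brain, had a HIF1A region at 77.5 and 60.3 at 4% O2 and no ARNT region.

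Scn1a and Scn2a, the main channels of brain neurons, had no reproducible region. Scn1a had 2 peaks in 1 list (HIF1A at 4% O2, replicate 1, highest percentile 68.4), and Scn2a had 1 peak in each of 4 lists at percentiles of 0.6 to 47.9. The sensory neuron genes Scn10a and Scn11a had no peak, nor did Scn7a. Among the 4 beta subunit genes Scn3b alone had regions. Its higher end region, chr9:40268021-40268395, ranked at 95 and 86.3 in the HIF1A lists and 37.4 and 81.0 in the ARNT lists at 4% O2, with a HIF1A peak in 1 list at 20% O2.

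Voltage-gated potassium channel pore genes were the largest family and so had the most room for members without a peak. Of 40 genes, 22 had no peak in any list, beside 9 of 15 inward rectifier genes. Among the 22 were Kcna1, Kcna2, Kcna3, Kcna5 and Kcna6 of the Shaker family, and the M-current gene Kcnq3. HIF1A regions at 4% O2 lay in 9 windows, ARNT regions in 10, and at 20% O2 the counts were 2 and 3.

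Kcnq1, the delayed rectifier pore of heart and inner ear, held 19 and 6 HIF1A peaks and 11 and 6 ARNT peaks at 4% O2. At 20% O2 it had 1 HIF1A peak in each list and 1 and 0 ARNT peaks. It had 6 HIF1A and 4 ARNT regions at 4% O2, all inside the gene, and the highest, chr7:143314003-143314204, ranked at 95.4 and 84.7 for HIF1A. The region at the start of the antisense transcript Kcnq1ot1, whose stretch above holds 2 ACGTG cores, ranked at 84.1 and 38.3. Kcnq5, an M-current gene, had a HIF1A region 799 bp from its listed start at 96.6 and 73.3.

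Kcnh2, the erg channel that repolarises the heart, had a peak in all 8 lists. Its best region had HIF1A ranks of 84.1 and 73.3 at 4% O2 (chr5:24342924-24343092, mean 78.7). Its end regions ranked low, at 20.6 and 3.48 in the HIF1A lists and 7.92 and 10.01 in the ARNT lists at 4% O2. At 20% O2 its ARNT region ranked at 57.2 and 13.9. Kcnh1, the ether-a-go-go pore, had 3 HIF1A regions at 4% O2 and 2 at 20% O2, and no ARNT region. A 20% O2 region of Kcnh1, chr1:192490198-192490376, with ranks of 42.1 and 17.1, was the only HIF1A channel region at 20% O2 with no peak in either HIF1A list at 4% O2.

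Kcnh6, another erg gene, shows how a neighbour enters a window. Its region, chr11:106036649-106036933, ranked at 99.3 and 97.6 for ARNT at 20% O2, the highest among the channel genes in that group, and at 97.0 and 72.6 at 4% O2. HIF1A had no peak there at 20% O2 and 1 list with a peak at 4% O2. It lies at the start of Dcaf7, which encodes a WD-repeat scaffold protein, 28605 bp from the start of Kcnh6. Kcnc4, a fast-gating pore, had a flank region at chr3:107436528-107436724 that ranked at 84.1 and 91.9 for HIF1A at 20% O2 and at 84.8 and 58.5 at 4% O2. Kcna4, an inactivating A-type pore, had an ARNT region across its start at 47.3 and 31.4 at 4% O2 and no HIF1A region. Kcnd1, an A-type pore, had its HIF1A region at 93.8 and 78.5 inside the neighbouring gene Otud5.

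**Figure D3:**
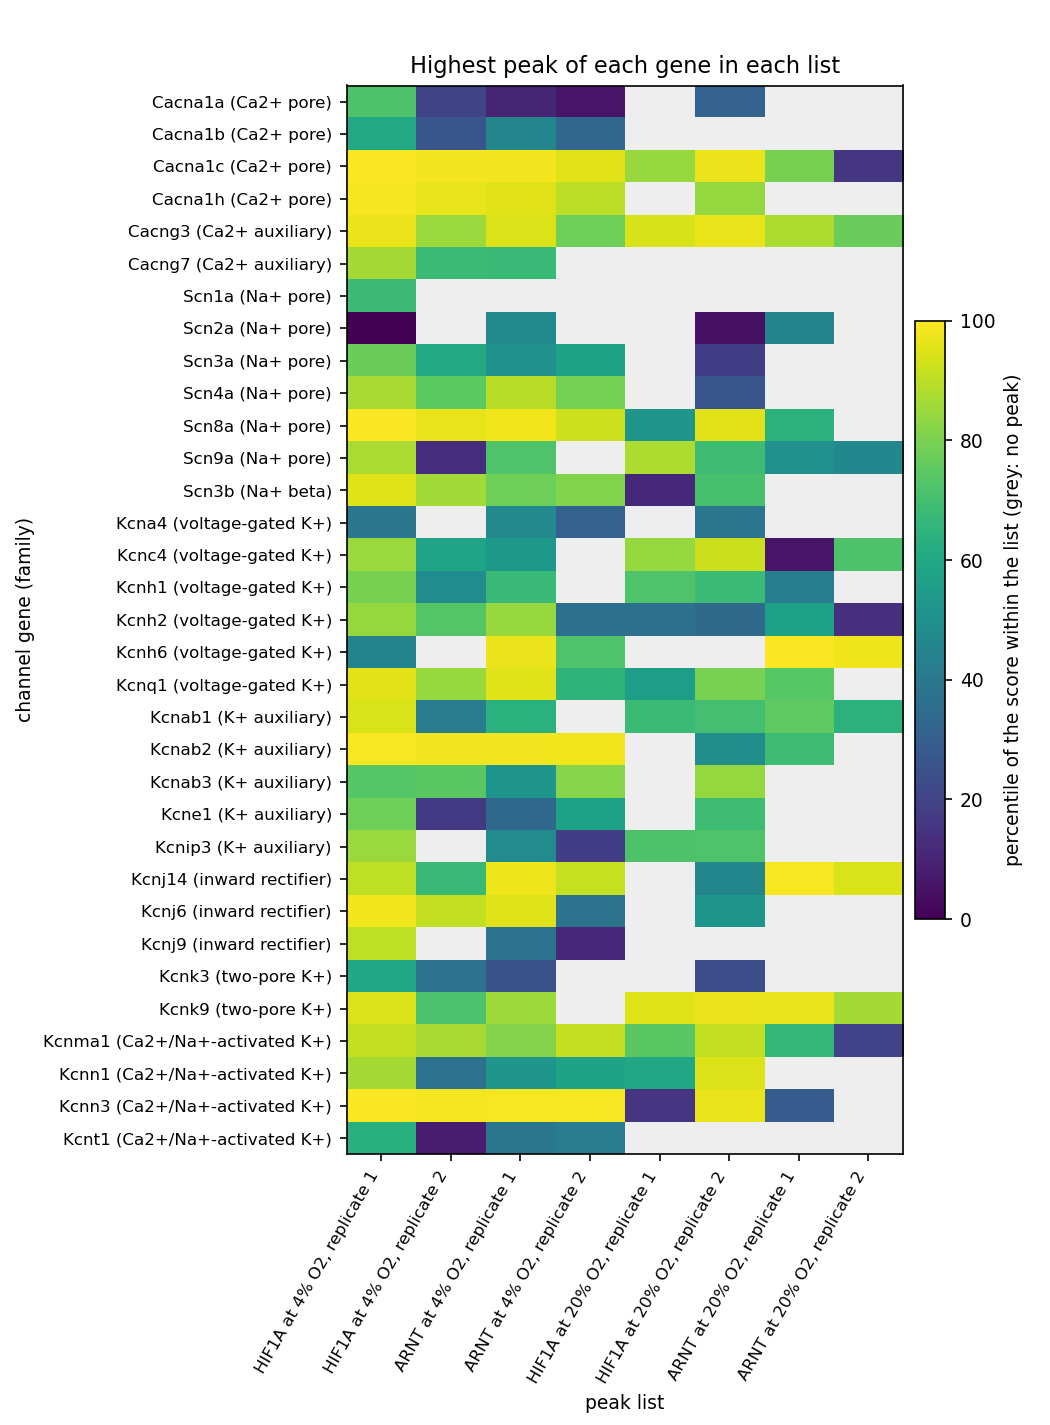
Percentile of the highest-ranking peak in the window of the named channel genes with a peak (rows, ordered by family) in each of the 8 peak lists (columns); colour runs from 0 (dark) to 100 (yellow) and grey marks no peak. Kcnn3, Kcnab2, Cacna1c and Scn8a lie above 90 in all 4 lists at 4% O2, and Kcnk9 and Cacng3 lie above 75 in all 4 lists at 20% O2.

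Auxiliary subunits of potassium channels had HIF1A regions at 4% O2 in 5 of 12 genes and ARNT regions in 4. Kcnab2 encodes a cytoplasmic beta subunit with an aldo-keto reductase fold, which binds NADPH. It held 7 and 3 HIF1A peaks and 8 and 3 ARNT peaks at 4% O2, 0 and 2 HIF1A peaks and 1 and 0 ARNT peaks at 20% O2. The highest site, chr4:152410902-152411238, lies 66311 bp into the gene and 37617 bp from the nearest listed start of Kcnab2. The site ranked at 98.9 and 98.3 in the HIF1A lists (mean 98.6 ± 0.42 SD, n = 2) and at 98.1 and 97.9 in the ARNT lists at 4% O2. No list at 20% O2 had a peak at that site, and it was the highest HIF1A channel region without one. A second site at an internal start of the gene, chr4:152448631-152448949, ranked at 95.9 and 86.4 in the HIF1A lists and 91.8 and 81.7 in the ARNT lists, and it too lacked a 20% O2 peak. The replicates differed by less than 1 percentile at the first site and by about 10 at the second.

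Kcnab1, another beta subunit, held 9 and 2 HIF1A peaks and 5 and 0 ARNT peaks at 4% O2, and 4 and 5 HIF1A peaks and 4 and 1 ARNT peaks at 20% O2. Its region at chr3:65360260-65360369 had ARNT ranks of 75.01 and 64.3 and HIF1A ranks of 59.2 and 66.5 at 20% O2, and it had no reproducible ARNT region at 4% O2. Kcnab3 had an end region shared with Trappc1, at mean percentiles of 34.7 for HIF1A and 52.2 for ARNT at 4% O2. The replicates disagreed there, at 56.7 and 12.7 for HIF1A and 22.5 and 81.9 for ARNT. Kcne1, the single-pass partner of Kcnq1, had an end region at a mean percentile of 47.6 for HIF1A at 4% O2, with replicates at 78.1 and 17.0. Kcnip3, a calcium-binding protein also called DREAM, was the only channel gene with a region for HIF1A at 20% O2 and for no other group. Its ranks were 71.9 and 72.6 (chr2:127511669-127511819), and the site had a peak in the replicate 1 list at 4% O2.

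Inward rectifiers, which pass potassium most easily near the resting potential, had HIF1A regions at 4% O2 in 5 of 15 genes and ARNT regions in 6. Kcnj8 and Kcnj11, the pores of the ATP-sensitive channels that couple metabolism to excitability, had no peak in any list, and 9 of the 15 genes had none. Kcnj6, a G protein-gated pore, had a region 40940 bp into the gene, chr16:94956444-94956756, that ranked at 97.7 and 90.7 in the HIF1A lists and 95.3 and 38.1 in the ARNT lists at 4% O2. Kcnj9, a partner of Kcnj6, had an ARNT region across its start at 37.4 and 10.9, whose stretch above holds a single GCGTG.

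Kcnj14 was counted through a neighbour. The site chr7:45814313-45814607 ranked at 99.2 and 94.4 for ARNT at 20% O2, 97.3 and 91.2 for ARNT at 4% O2, and 90.4 and 67.6 for HIF1A at 4% O2. HIF1A had a peak there in 1 of 2 lists at 20% O2. It lies at the start of Cyth2, which encodes an exchange factor for ARF GTPases. Kcnj4, a strong inward rectifier, was likewise counted through a HIF1A region at 94.1 and 85.9 at the end of Kdelr3.

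Tandem-pore (K2P) genes encode background potassium channels that set the resting potential. HIF1A regions at 4% O2 lay in 5 of 14 windows and ARNT regions in 3, and 7 genes had no peak, among them Kcnk5 and Kcnk15. Kcnk9, an acid-sensitive TASK channel, had the highest HIF1A channel region at 20% O2. The site, chr15:72493410-72493578, lies in the flank and ranked at 95.2 and 97.2 in the HIF1A lists and at 96.4 and 86.4 in the ARNT lists at 20% O2. At 4% O2 HIF1A ranked there at 94.5 and 71.6, and ARNT had a peak in 1 list. The site was therefore in 7 of 8 lists and stood at 86.4 or above in all 4 lists at 20% O2. Kcnk3, another TASK gene, which is known from oxygen-sensing carotid body cells, had a single flank region with HIF1A ranks of 59.7 and 37.7 at 4% O2. It had no ARNT region and no region at 20% O2.

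Calcium- and sodium-activated potassium channels had HIF1A regions at 4% O2 in 6 of 12 genes and ARNT regions in 5. Kcnn3 encodes a small-conductance calcium-activated pore that shapes the afterhyperpolarisation, and it held the highest-ranking channel region at 4% O2 for both antibodies. The gene held 13 and 5 HIF1A peaks and 5 and 1 ARNT peaks at 4% O2, 1 and 4 HIF1A peaks and 1 and 0 ARNT peaks at 20% O2. The site, chr3:89558999-89559767, lies 38835 bp into the gene. HIF1A ranked there at 99.6 and 98.6 (mean 99.1 ± 0.65 SD, n = 2; authors' scores 403 and 318) and ARNT at 99.2 and 98.9 (99.1 ± 0.23 SD, n = 2; scores 162 and 492). At 20% O2 it had a HIF1A peak in the replicate 2 list alone and no ARNT peak. All 4 lists at 4% O2 thus placed the Kcnn3 site within their highest 2%.

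Kcnma1, the large-conductance BK pore that opens with both calcium and voltage, carried many sites of moderate rank along 713 kb. It held 23 and 6 HIF1A peaks and 13 and 2 ARNT peaks at 4% O2, and 5 and 8 HIF1A peaks and 2 and 1 ARNT peaks at 20% O2. Some sites were reproducible at a single oxygen level and others at both. The region at chr14:23751278-23751502 ranked at 85.2 and 86.8 in the HIF1A lists and 79.6 and 90.9 in the ARNT lists at 4% O2, and no list at 20% O2 had a peak there. The region at chr14:23573384-23573676 ranked at 74.4 and 90.9 for HIF1A at 20% O2 and had a HIF1A peak in 1 list at 4% O2. Another site had HIF1A peaks in both lists at both levels, with ranks of 74.4 and 14.9 at 4% O2 (chr14:23589934-23590332) and 70.2 and 89.2 at 20% O2 (chr14:23590039-23590411). Kcnn1 was counted at 20% O2 through a HIF1A region at an end of Ccdc124, with ranks of 60.03 and 94.7, and its own end region ranked at 28.6 and 2.33 at 4% O2. Kcnt1, a sodium-activated pore, had an end region at 38.9 and 7.47 for HIF1A at 4% O2.

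**Figure D4:**
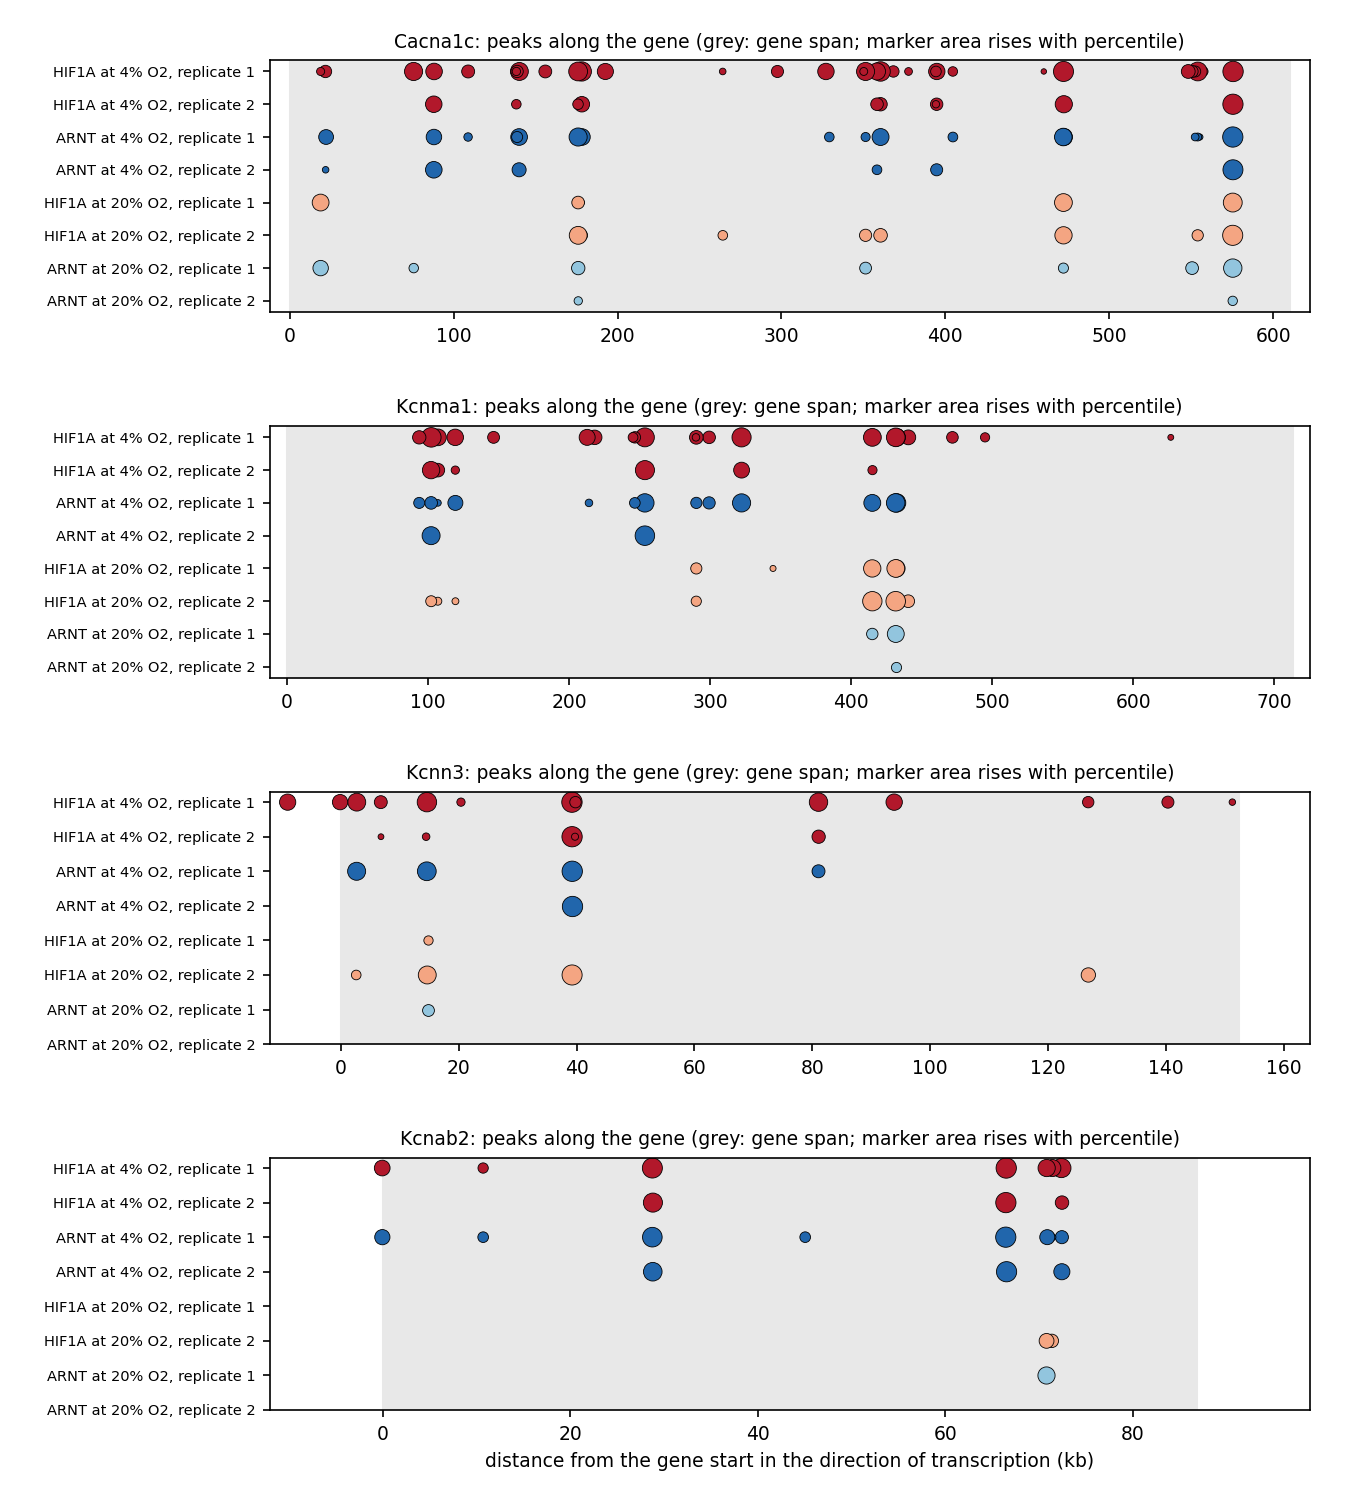
Peaks of the 8 lists (rows) along Cacna1c, Kcnma1, Kcnn3 and Kcnab2, by distance from the gene start in kb (horizontal axis); grey is the gene span and marker area rises with the percentile within the list. In Kcnab2 the site 66311 bp from the start is present in all 4 lists at 4% O2 and in none at 20% O2, while in Cacna1c the site 575081 bp from the start is present in all 8 lists.

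The 134 genes together fell into few patterns over the 4 groups. No region was found in any group for 80 genes, of which 58 had no peak in any list. Regions of both antibodies at 4% O2 and none at 20% O2 were found for 23 genes, among them Kcnab2, Cacna1h, Kcnq1 and Scn4a. Another 10 genes had a HIF1A region at 4% O2 alone and 5 an ARNT region at 4% O2 alone. Kcnab1, Kcnc4, Kcnk9 and Scn9a had regions in every group but ARNT at 4% O2. Cacna1c, Cacng3 and Kcnma1 had one in all 4 groups. With Kcnh2, these 3 were the genes with a peak in all 8 lists. The same patterns were not counted over all protein-coding genes, so these counts are no result about channels.

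Lists at 4% O2 gave channel windows a larger share of their peaks than lists at 20% O2. Channel windows held 353 and 108 HIF1A peaks at 4% O2, against 34 and 83 at 20% O2, which is 0.827% and 0.791% of the list against 0.630% and 0.620%. For ARNT the numbers were 203 and 95 at 4% O2, against 38 and 11 at 20% O2, or 0.814% and 0.958% of the list against 0.524% and 0.608%. All 4 lists at 4% O2 lay above all 4 lists at 20% O2. The mean share for HIF1A was 0.809% ± 0.0253 (SD, n = 2) at 4% O2 and 0.625% ± 0.00735 (SD, n = 2) at 20% O2, a log2 ratio of 0.37. For ARNT it was 0.886% ± 0.102 (SD, n = 2) and 0.566% ± 0.0597 (SD, n = 2), a log2 ratio of 0.65. With 2 lists against 2 a two-sided exact permutation test cannot go below p = 0.33, so no test was run for an antibody. Within replicate 1, whose samples were read on a single lane, the log2 ratios were 0.39 for HIF1A and 0.64 for ARNT.

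Among the highest peaks of each list the order did not hold for HIF1A. With the 1808 highest peaks of every list, the HIF1A shares were 0.664% and 0.498% at 4% O2 and 0.719% and 0.608% at 20% O2. The HIF1A log2 ratio was then −0.19, the opposite direction. In a list of 1808 peaks a share of 0.608% is 11 peaks, so this order rests on few peaks. The ARNT shares were 0.719% and 0.498% at 4% O2 and 0.387% and 0.608% at 20% O2, a log2 ratio of 0.29 with overlapping lists. The larger share at 4% O2 was therefore not present among the highest peaks for HIF1A. In 3 of the 4 pairs the 4% O2 list was also the longer by far, and the part of list length in the result was not tested. The HIF1A replicate 2 lists (13655 peaks at 4% O2 and 13386 at 20% O2) had a log2 ratio of 0.35 over all their peaks. Among the 1808 highest of this pair the share was 0.498% at 4% O2 and 0.608% at 20% O2.

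**Figure D5:**
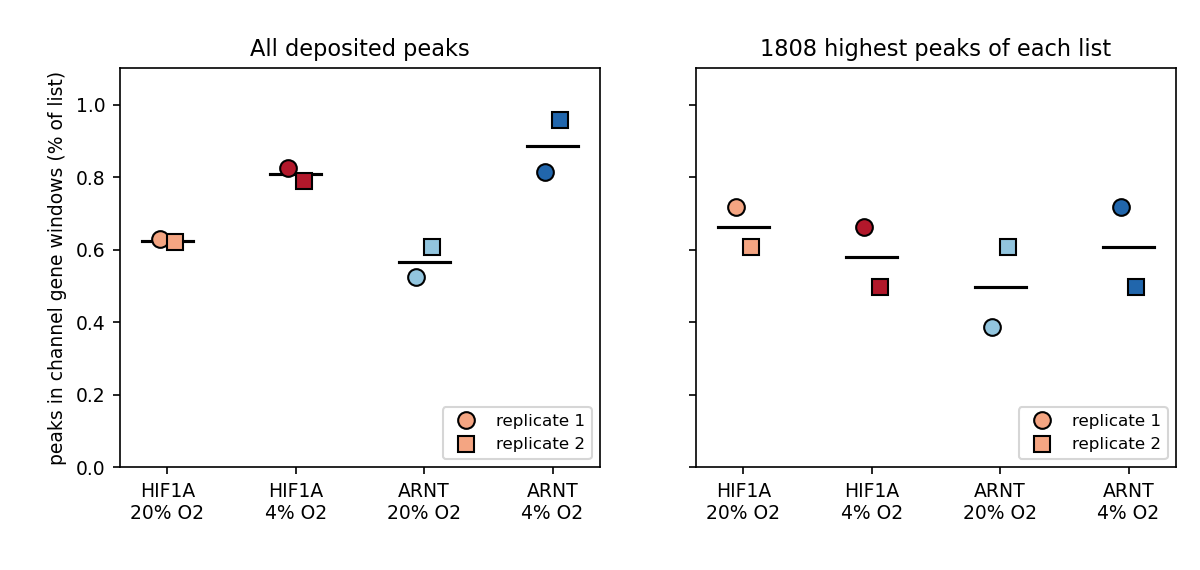
Percent of the peaks of each list that lie in channel gene windows, for all deposited peaks (left) and the 1808 highest of each list (right), by antibody and oxygen level. Circles are replicate 1, squares replicate 2 and lines the mean of 2; all 4% O2 points lie above all 20% O2 points on the left, and on the right the HIF1A means are in the opposite order. The points on the right rest on few peaks, a share of 0.608% being 11 peaks.

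Peaks were thinner over channel genes than over genes at large in every list. Per Mb of window, HIF1A peaks at 4% O2 numbered 18.1 and 5.54 in channel windows and 23.9 and 7.95 in all gene windows, and ARNT peaks 10.4 and 4.87 against 14.3 and 6.32. At 20% O2 the HIF1A densities were 1.74 and 4.26 against 2.64 and 7.38, and the ARNT densities 1.95 and 0.564 against 4.06 and 1.04. The ratio of channel to all-gene density lay between 0.697 and 0.771 in the 4 lists at 4% O2 and between 0.480 and 0.661 in the 4 at 20% O2. Over all peaks of the lists, channel windows were below the all-gene density at both oxygen levels, and less so at 4% O2. These ratios use the same peaks as the shares above, whose order did not hold for HIF1A among the highest peaks. Density ratios for the highest peaks are not given here. Channel genes had a median span of 44.7 kb, against 17.3 kb for all protein-coding genes. The densities are not weighted to span, and the part of gene length in them was not tested.

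Most 4% O2 regions of channel genes lacked a 20% O2 peak. For ARNT, 51 of 57 had none in either list (89.5%, 78.9 to 95.1), against 76.6% of all ARNT regions at 4% O2. For HIF1A it was 61 of 104 (58.7%, 49.0 to 67.6), against 45.5%. In both antibodies the background lay below the interval, which covers counting of regions only. Of the 29 HIF1A regions with a peak in a single list at 20% O2, 28 had it in the replicate 2 list. That list holds 13386 peaks, against 5393 in the replicate 1 list, and it gives 1 bp positions. The part of list length or form was not tested, and the same split over all HIF1A regions was not computed. With the replicate 1 lists alone at both oxygen levels, 92.4% of the HIF1A channel sites at 4% O2 lacked a 20% O2 peak, and with the replicate 2 lists alone 67.6%. The replicate 1 lists hold 42701 peaks at 4% O2 and 5393 at 20% O2. These single-list shares were not computed over all sites, so they are no result about channels. The median of the regions' mean percentiles at 4% O2 was 52.0 for the 61 HIF1A regions without a 20% O2 peak, 78.5 for the 28 with one in the replicate 2 list and 66.8 for the 14 with one in both lists. In the other direction, 22 of the 23 HIF1A regions at 20% O2 and all 11 ARNT regions had a peak of the same antibody in at least 1 list at 4% O2. The share without such a peak was 4.35% for HIF1A (0.772 to 21.0), against 3.40% of all HIF1A regions at 20% O2. For ARNT it was 0 (0 to 25.9), against 4.68%. Both backgrounds lay within the interval, so this is no result about channels.

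Regions shared by both antibodies were about as common as elsewhere. Of the 104 HIF1A regions at 4% O2, 44 overlapped an ARNT region (42.3%, 33.3 to 51.9), against 45.3% of all, and 10 had no ARNT peak in either list. Of the 57 ARNT regions 45 overlapped a HIF1A region (78.9%, 66.7 to 87.5), against 83.9%. At 20% O2 the shares were 8 of 23 HIF1A regions (34.8%, 18.8 to 55.1), against 20.5%, and 8 of 11 ARNT regions (72.7%, 43.4 to 90.3), against 56.3%. Every one of these backgrounds lay within its interval.

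Channel regions were of ordinary rank. The median of their mean percentiles was 61.2 (HIF1A) and 60.8 (ARNT) at 4% O2, against 65.6 and 63.8 for all regions of the group. At 20% O2 the medians were 69.1 for HIF1A and 48.7 for ARNT, against 61.4 and 64.5, over 23 and 11 regions. A mean percentile of 95 or more was reached by 6 of 104 HIF1A regions (5.77%, against 7.71%) and 5 of 57 ARNT regions (8.77%, against 9.04%) at 4% O2. Among the 6 were regions in Kcnn3, Cacna1c, Kcnab2, Scn8a and Cacna1h, and among the 5 regions in Kcnn3, Cacna1c, Kcnab2 and Scn8a.

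A list of 47 related genes (Hcn, Nalcn, Trp, ryanodine and inositol trisphosphate receptor, Clcn, Asic and Catsper genes) gave counts on either side of those of the channel genes. HIF1A regions at 4% O2 lay in 20 windows (42.6%, beside the 34.2% of all genes) and ARNT regions in 13 (27.7%, beside 27.7%). At 20% O2 they lay in 10 (21.3%, beside 10%) and 5 (10.6%, beside 7.11%). At a gene end the counts at 4% O2 were 7 (14.9%, 7.41 to 27.7, beside 17.5%) and 6 (12.8%, 5.98 to 25.2, beside 15.2%), and at 20% O2 they were 0 for both antibodies (beside 2% and 3.05%). The inositol trisphosphate receptor genes Itpr1, Itpr2 and Itpr3, which release calcium from the endoplasmic reticulum, all had a HIF1A region at 4% O2, and Itpr1, Asic2 (a proton-gated channel), Nalcn (a sodium leak channel) and Trpm2 had regions of both antibodies at 20% O2.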

How the data were processed

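HIF1A and ARNT peak lists of 8 ChIP samples were analysed; the 4 inputs have no list of their own. Per the submitters' processing notes the authors used BWA, Picard and MACS2 with mm10; their versions and parameters: not given in the sources used here. The authors deposited 1 list per ChIP sample, with a position and a score per peak, and the scale of the score is not named (lowest values round to 2), so it was used to rank peaks within a list. Depth is unknown.

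Groups came from the sample titles. Genes and spans came from RefSeq (GRCm38.p6, the build mm10), and 99 of the 134 members matched a RefSeq promoter window, which gives strand. Peaks of a group were merged where they overlapped by 1 bp or more, with 1 bp entries widened by 75 bp on either side. Gene ends are either end of the span within 1 kb. Counts of members are given beside the same count over all 21631 genes, with 95% Wilson intervals and no test. Python 3.11.15, numpy 2.4.6, pandas 2.3.3 and scipy 1.17.1 were used, and the merging was tested on simulated sites.

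Members and lists were chosen with earlier results of these data known. Genes are named by rule: the 10 highest by mean percentile in each group, every member with an end region or with a peak in all 8 lists, up to 5 with most peaks per group, and 21 set in advance; some of these are not reported here. Cacna1g, Cacna1i, Kcnd1, Kcnj4, Kcnq5 and other members outside the rule were added after their values were seen. Alternatives varied the flank, the end distance, the overlap, the widening, the number of peaks and the list left out.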

Additional observations from a re-analysis of the deposited data

How the results depend on the processing

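A 50% overlap and a widening of 250 bp or none changed no main count by over 1.5 times. With the gene span alone, genes with a region numbered 30 and 21 at 4% O2 (HIF1A, ARNT) and 6 for ARNT at 20% O2, end counts were 5 and 4, and 93.3% of HIF1A regions at 4% O2 were away from ends; the log2 ratios of shares were 0.28 and 0.74. A flank of 5 kb gave 0.40 for HIF1A. With ends drawn at 5 kb, end counts were 24 and 20 at 4% O2 and 2 and 4 at 20% O2 (backgrounds 24.7%, 20.6%, 4.17% and 4.39%, all within the 95% Wilson intervals), and the shares away from ends were 68.3% (HIF1A at 4% O2), 63.2% (ARNT at 4% O2) and 63.6% (ARNT at 20% O2). With the 1808 highest peaks of each list, genes with a region numbered 7, 7, 5 and 5 (HIF1A and ARNT at 4%, then at 20% O2), end counts 1 and 1 at 4% O2, overlap of HIF1A with ARNT regions 75%, ARNT regions without a 20% O2 peak 71.4%, and the log2 ratios −0.19 for HIF1A, a reversal whose cause was not tested, and 0.29 for ARNT. Fewer peaks give fewer regions by construction, and the reversal rests on few channel peaks per list. The shares of all genes with the gene span alone and with the 1808 highest peaks are not given here. The gene counts of these 2 settings are therefore no result about channels.

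A single list in place of both gave 47 to 73 genes for HIF1A and 50 to 66 for ARNT at 4% O2, and 20 to 41 and 10 to 26 at 20% O2. As deposited, replicates 1 and 2 gave 54.5% and 35.1% for HIF1A at 4% O2, against 56.9% and 34.8% of all genes. For ARNT at 4% O2 the shares were 49.3% and 37.3%, against 49.3% and 35.5%. At 20% O2 HIF1A gave 14.9% and 30.6%, against 11.3% and 31.7%, and ARNT 19.4% and 7.46%, against 22.3% and 7.60%. End counts were 12 to 34 and 14 to 19 at 4% O2, and 0 to 6 and 0 to 1 at 20% O2. Overlap of HIF1A with ARNT was 47.9% to 54.6%, and the share without a 20% O2 peak was 67.6% to 92.4% for HIF1A and 85.2% to 96.8% for ARNT. The same single-list shares over all sites were not computed. Chosen after seeing the data, shares of the peaks in gene windows gave log2 ratios of 0.23 and 0.55.

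The labels do not say that replicate numbers pair samples: per the file headers the replicate 1 lists share a lane, while the ARNT replicate 2 lists came from different flow cells. With the ratio taken within each number (replicate block), the log2 ratios were 0.37 ± 0.03 (SD, n = 2) for HIF1A and 0.64 ± 0.01 for ARNT, which changed no direction. Exons and strand of 35 members were not used, and percentiles carry no depth.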
